A study of Mus musculus with 12 samples.

Results

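The genes described here encode parts of laminin-332 and of the hemidesmosome. The members were Lama3 and Lamb3 for laminin-332, Itga6 and Itgb4 for the integrin that binds it, Col17a1 and Cd151 for other membrane proteins of the junction, and Dst and Plec for its plakins. They were found by gene symbol on the arrays, and these 8 genes of 18193 measured are read by 20 probe sets that carry only that symbol; for a gene with several, the brightest by mean stands for it and the rest serve as a check. All values below are log2 levels, log2(intensity + 16) of the deposited intensities, unless an intensity is named. On this scale the lowest possible level, where the deposited value is 1, is 4.09.

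The samples were 12 tumours of 3 lung adenocarcinoma lines, with 4 arrays for each line. Mice carrying the alleles p53R172H∆g/+ and K-rasLA1/+ gave rise to all 3 lines, which are mass populations of cultured tumour cells and not single clones. From mouse 393 came 393P, grown out of a primary lung tumour and labelled non-metastatic, and 393LN, grown out of a mediastinal lymph node and labelled intermediately metastatic; 344SQ came from a subcutaneous site in mouse 344 and is labelled highly metastatic. The cells were passed in medium with fetal bovine serum and then grown as tumours in syngeneic mice, so each array also reads RNA of the host, and no agent was given to any group. The mouse of origin, the site of origin and the metastatic behaviour of 344SQ cannot be told apart, since 1 line stands for each. The labels do not say whether the 4 tumours of a line grew in separate animals, and p-values then measure only the spread between these samples.

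A hemidesmosome is the rivet that fastens an epithelial cell to its basement membrane. Outside the cell, laminin-332 is a trimer of an alpha, a beta and a gamma chain that the epithelial cell itself secretes; the integrin alpha-6 beta-4 and the collagen XVII protein grip it, and inside the cell the plakins plectin and dystonin tie the integrin to keratin filaments. In lung, laminin-332 lies beneath the airway epithelium, and in carcinomas it is known as a substrate for adhesion and migration. In a bulk tumour, fewer cells of a type and less RNA per cell cannot be told apart.

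Array medians on the plain log2 scale lay between 7.19 and 7.29. On 393P replicate 1 the actin probes at the 3' end gave 1.47 times the signal of those at the 5' end, a measure of RNA integrity; elsewhere this value lay between 1.03 and 1.19. Markers of carcinoma epithelium were present on every array: the keratin genes Krt8, Krt18 and Krt19 and the E-cadherin gene Cdh1 did not go below 13.02, while Epcam ranged from 8.30 to 13.56 and was lower in 344SQ.

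In 344SQ against 393P, 3 of the 8 genes passed the test at an adjusted p under 0.05: Lama3 and Itgb4 fell and Dst rose. Over all genes 10.5% passed in that comparison, 5.62% as lower and 4.86% as higher. In 344SQ against 393LN, 3 passed, with falls of Lama3 and Itgb4 and a rise of Itga6, where 10.9% of all genes passed (6.92% lower and 3.99% higher). In 393LN against 393P, Dst alone passed, as a rise, where 2.45% of all genes passed, 1.75% as higher and 0.698% as lower. The median log2 change of the 8 genes was 0.13, -0.19 and 0.03 in these comparisons, beside -0.0007, -0.02 and 0.01 over all genes. Without regard to the test, the 4 values of 1 line lay wholly above or below those of the other for 4 of the 8 genes in 344SQ against 393P (16.7% of all genes), for 3 in 344SQ against 393LN (17.4%) and for 1 in 393LN against 393P (10.3%). Of the 12 other probe sets of these genes, 1, of Dst, passed in 344SQ against 393P, where 7.62% of single probe sets did, and 0 in the other comparisons, where 7.42% and 1.81% did. The first and second comparisons share the 344SQ arrays, and each line enters a pair of them. The genes did not move as 1 block: the changes ran from the largest fall of the set, in Lama3, to rises in the partner genes Itga6 and Dst.

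**Figure D1:**
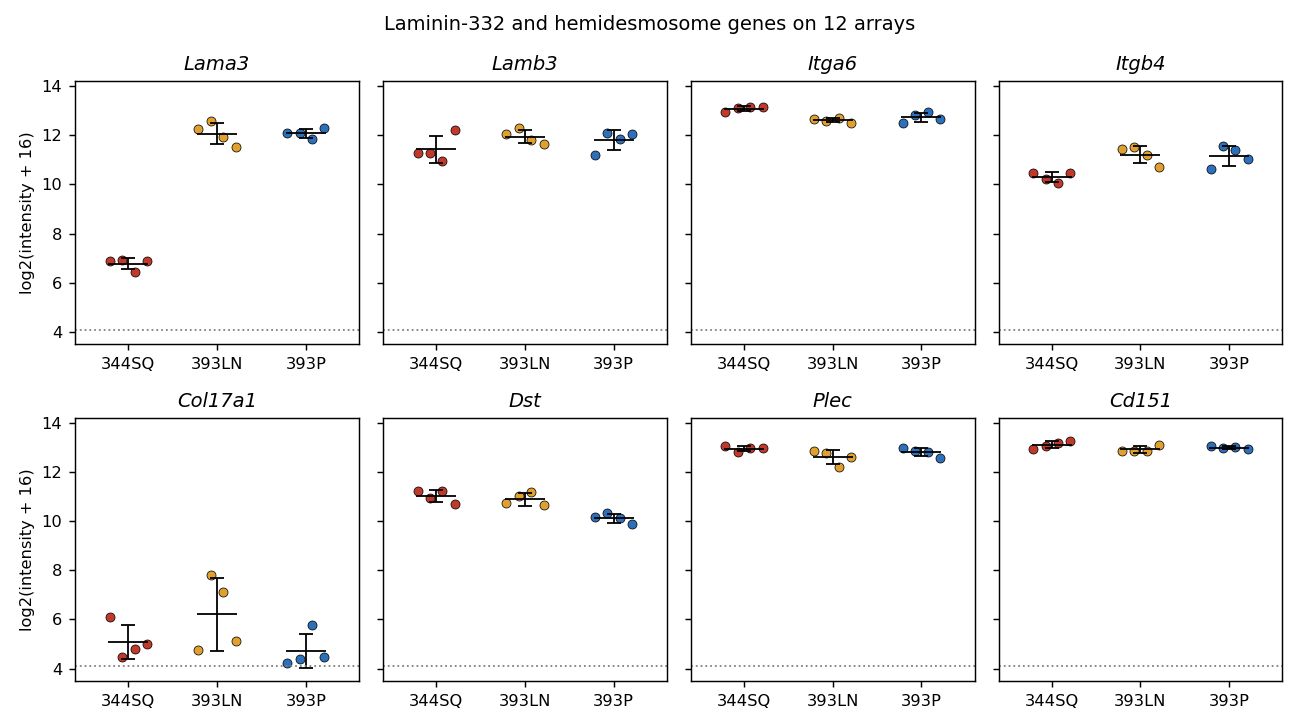
Log2(intensity + 16) of the 8 genes on each of the 12 arrays, by line (4 points each, in replicate order; bar and whiskers, mean and SD); the dotted line is the floor of 4.09. Lama3 lies below 7 on all 4 344SQ arrays and above 11 on the other 8, while Plec and Cd151 lie at similar levels in all 3 lines and Col17a1 ranges from 4.22 to 7.81.

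Lama3 encodes the alpha chain of laminin-332, which carries the site that integrins bind. Its level was 6.86, 6.94, 6.45 and 6.86 on the 344SQ arrays, 12.24, 12.56, 11.92 and 11.54 on the 393LN arrays and 12.09, 12.09, 11.83 and 12.27 on the 393P arrays. As intensities, 344SQ lay between 71.5 and 107 and the 8 arrays of the other lines between 2957 and 6039, so the groups stood far apart. The 344SQ values lay below the median of every array, and the floor is only the lowest deposited value and no measured background, so these data do not show whether Lama3 was detected in 344SQ. The fall was 39.1-fold against 393P (-5.29 ± 0.20 SE on the log2 scale with 4 arrays per line, limma adjusted p = 1.95e-08) and 39.0-fold against 393LN (-5.29 ± 0.20, adjusted p = 2.61e-08). Its size depends on the pseudocount: against 393P the log2 change was -5.50 with a pseudocount of 1 and -4.78 with 64. Between 393LN and 393P the change was -0.00, with a 95% interval from -0.44 to 0.43. A second probe set, 1444860_at, was dim in every line, with a mean of 4.85 in 344SQ and means of 5.17 and 5.14 in 393LN and 393P, and its change of -0.29 against 393P did not pass (adjusted p = 0.572). Averaging both probe sets gave a change of -2.79 against 393P and -2.80 against 393LN, both still past the test.

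Lamb3 encodes the beta chain of the same trimer. Its level was 11.29, 11.29, 10.93 and 12.19 in 344SQ, 12.04, 12.27, 11.81 and 11.64 in 393LN and 11.21, 12.10, 11.86 and 12.07 in 393P. Ranges overlapped: 3 of the 344SQ arrays lay below all 393LN arrays, and 344SQ replicate 4 lay above all but 1 of the 8 arrays of the other lines. The log2 changes were -0.38 against 393P (95% interval -0.96 to 0.20, adjusted p = 0.457) and -0.51 against 393LN (-1.10 to 0.07, adjusted p = 0.259), so neither passed. Without 344SQ replicate 4 they were -0.64 and -0.77 and still did not pass.

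The alpha and beta chain genes stood apart in 344SQ. Within each array, the Lama3 level minus the Lamb3 level was -4.65 ± 0.46 in 344SQ, 0.13 ± 0.17 in 393LN and 0.26 ± 0.42 in 393P (SD, n = 4). The difference between lines in this quantity was -4.91 for 344SQ against 393P, -4.77 for 344SQ against 393LN and -0.13 for 393LN against 393P. Pairs of genes were chosen after their values were seen, so these differences are a description with no test. Averaging the probe sets of a gene brought the first 2 differences to -2.41 and -2.29.

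Itgb4 encodes the beta-4 integrin subunit, whose long tail binds plectin and which pairs only with alpha-6. Its level was 10.46, 10.23, 10.05 and 10.46 in 344SQ, 11.43, 11.53, 11.18 and 10.71 in 393LN and 10.61, 11.55, 11.40 and 11.03 in 393P. All 344SQ arrays lay below all 8 others, though the lowest arrays of the 393 lines came close. Itgb4 fell 1.80-fold against 393P (log2 change -0.85 ± 0.22 SE, adjusted p = 0.0282) and 1.88-fold against 393LN (-0.91 ± 0.22, adjusted p = 0.0204). Both calls were close to the threshold. The first ended without 344SQ replicate 2 or 3 or without 393P replicate 2, 3 or 4, with changes from -0.72 to -0.89 and a highest adjusted p of 0.0849; the second ended without 344SQ replicate 2 or 3 or 393LN replicate 1 or 2, with a highest adjusted p of 0.0602.

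Itga6 encodes the alpha-6 subunit, which pairs with beta-4 in hemidesmosomes and with beta-1 elsewhere, among others on endothelium and platelets. Its level was 12.94, 13.09, 13.15 and 13.14 in 344SQ, 12.67, 12.59, 12.69 and 12.49 in 393LN and 12.48, 12.81, 12.92 and 12.66 in 393P. All 4 of the 344SQ arrays lay above the others, though the lowest, at 12.94, stood next to the highest 393P array, at 12.92. The rise against 393LN was 1.38-fold (log2 change 0.47 ± 0.11 SE, adjusted p = 0.019), a call that ended without 344SQ replicate 2 (adjusted p = 0.0503). Against 393P the change was 0.36 ± 0.11 with an adjusted p of 0.0585, which went under the threshold with 5 other settings and without 393P replicate 3. The other probe set, 1422444_at, had changes of 0.51 against 393LN (adjusted p = 0.0726) and 0.12 against 393P (adjusted p = 0.748).

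The 2 subunit genes of this integrin were also set side by side, as a description with no test. Itga6 minus Itgb4 within each array was 2.78 ± 0.26 in 344SQ, 1.40 ± 0.31 in 393LN and 1.57 ± 0.25 in 393P (SD, n = 4), from 2.49 to 3.10 in 344SQ and at most 1.87 in the others. The difference between lines was 1.21 for 344SQ against 393P, 1.38 for 344SQ against 393LN and -0.17 for 393LN against 393P.
Within lines the 2 genes tended to vary together: across the 12 arrays, the deviations of Itga6 and Itgb4 from their line means correlated with r = 0.62, a description over arrays that share their scaling. Markers of endothelium, which also carries Itga6, had a mean level of 8.95 to 9.49 in 344SQ, 9.03 to 9.62 in 393LN and 9.01 to 9.52 in 393P, with 0 of 8 past the test in any comparison. Of 5 platelet markers 1, Ppbp, passed, as a fall in 344SQ against 393P; the list's mean ran from 8.12 to 8.87 in 344SQ, 8.57 to 8.81 in 393LN and 8.85 to 8.98 in 393P, and Gp9 was at the floor on 3 arrays.

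**Figure D2:**
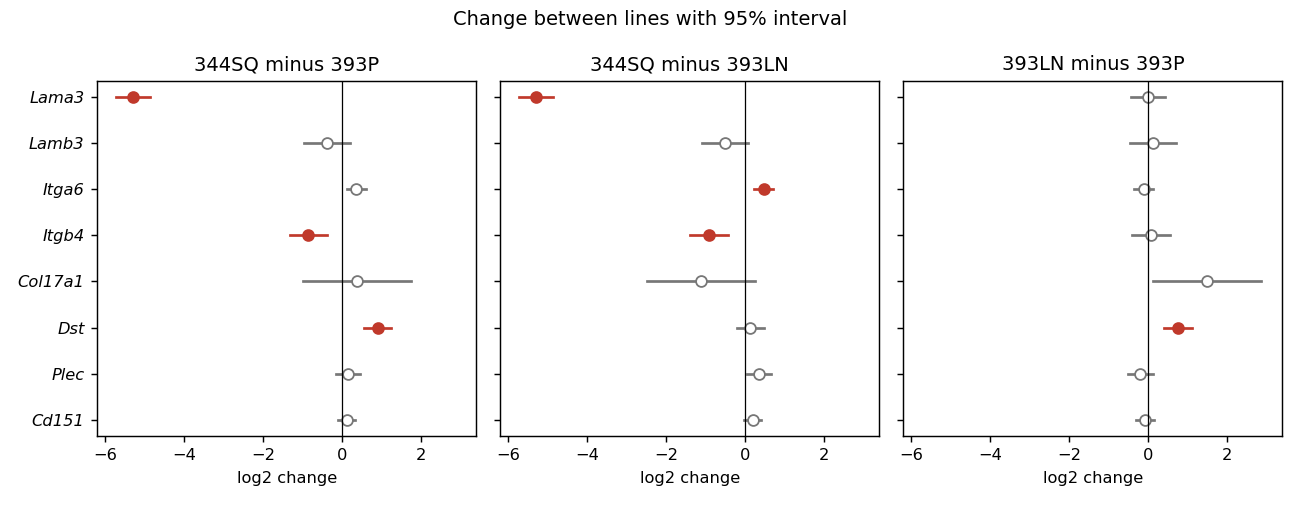
Log2 change of each gene in the 3 comparisons (point, with its 95% interval from limma); filled red points have an adjusted p under 0.05. Lama3 stands at -5.29 in both comparisons with 344SQ, Itgb4 lies left of 0 and Itga6 right of 0 in both, and Dst lies right of 0 in both comparisons with 393P.

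Cd151 encodes a tetraspanin that binds laminin-binding integrins and joins the hemidesmosome at its edge. Its level was 12.93, 13.05, 13.17 and 13.25 in 344SQ, 12.86, 12.83, 12.84 and 13.10 in 393LN and 13.03, 12.98, 13.01 and 12.92 in 393P. These ranges overlapped. The changes were 0.11 for 344SQ against 393P (95% interval -0.11 to 0.34, adjusted p = 0.571), 0.19 for 344SQ against 393LN (-0.03 to 0.41) and -0.08 for 393LN against 393P (-0.30 to 0.14). Cd151 has 5 other probe sets, none of which passed; 3 of them had means from 11.94 to 12.38 and changes from 0.20 to 0.26 in 344SQ against 393P. The probe set used ends in x_at, a class in which probes may also match other transcripts.

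Col17a1 encodes collagen XVII, a transmembrane collagen that spans from the plakins to the basement membrane. On 8 of the 12 arrays it was no more than 5.14. Its level was 6.08, 4.46, 4.81 and 5.0 in 344SQ, 4.77, 7.81, 7.11 and 5.14 in 393LN and 4.22, 4.41, 5.76 and 4.47 in 393P. As intensities, the highest were 208 and 122, on 393LN replicates 2 and 3, and the lowest was 2.69. Within each line the arrays spanned a wider range than any difference between line means. No change passed: 0.37 for 344SQ against 393P (adjusted p = 0.796), -1.12 for 344SQ against 393LN (adjusted p = 0.299) and 1.49 ± 0.63 SE for 393LN against 393P (adjusted p = 0.271).

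Col17a1 is also a gene of skin basal cells, and its highest arrays were those with the most signal from skin keratinocyte markers. The mean of 8 such markers was 8.55 on 344SQ replicate 1 and 7.15 to 7.55 on the other 344SQ arrays. It was 10.15 and 9.17 on 393LN replicates 2 and 3 and 7.55 and 7.41 on the other 393LN arrays, and 8.76 on 393P replicate 3 against 7.29 to 7.68 on the rest of 393P. In each line the arrays with the highest means of the markers were also those with the highest Col17a1. Of the 8 markers 1, the cornified envelope gene Lor, passed the test, as a fall in 344SQ against both other lines. Krt14, a keratin of basal cells, ran from 7.30 to 11.74 over the arrays, and no marker of the list was at the floor on any array. The part of skin cells in the Col17a1 values was not tested.

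The genes most like Col17a1 over the 12 arrays, among 4056 candidates, were Lgals7, Dmkn and Krt5 (r = 0.93 each), and by deviations from line means Lgals7 (r = 0.99), Krt6b (0.96) and Dmkn (0.94). Lgals7 encodes galectin-7 of stratified epithelia and was at 11.38 and 10.21 on 393LN replicates 2 and 3 and at 7.19 and 7.73 on the others of that line. These correlations are descriptions over arrays that share a platform and a scaling.

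**Figure D3:**
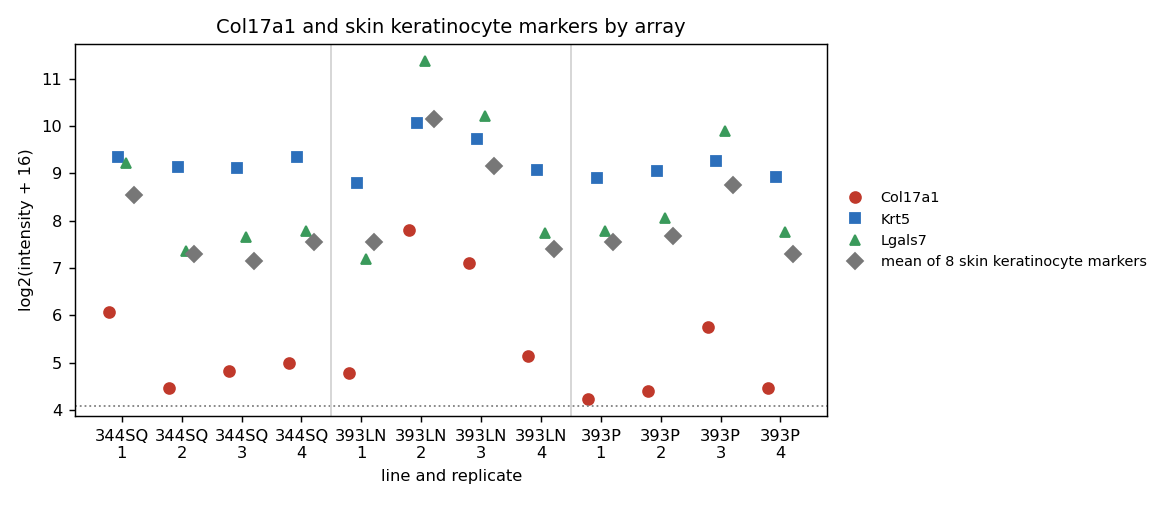
Log2(intensity + 16) of Col17a1, Krt5 and Lgals7 and the mean of 8 skin keratinocyte markers on each array, by line and replicate; the dotted line is the floor of 4.09. Col17a1 is highest on 344SQ replicate 1, 393LN replicates 2 and 3 and 393P replicate 3, the arrays on which the marker mean is also highest in each line.

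Dst encodes dystonin, a giant plakin made in several forms, of which the epithelial form binds keratin at the hemidesmosome and others serve neurons and muscle. The 250 bases before 2 of its start sites in RefSeq (GRCm38.p6, plus strand) are shown, those for which a window was at hand (the gene's annotated 5' end, chr1:33907888, lies upstream of both), because Dst is the member that set 393LN apart from 393P and because its probe sets did not act alike; capitals mark matches to CACCTG, the E-box that Zeb and Snail factors bind, and to GGGCGG, the GC box, on either strand.
Dst, chr1:34011345-34011594: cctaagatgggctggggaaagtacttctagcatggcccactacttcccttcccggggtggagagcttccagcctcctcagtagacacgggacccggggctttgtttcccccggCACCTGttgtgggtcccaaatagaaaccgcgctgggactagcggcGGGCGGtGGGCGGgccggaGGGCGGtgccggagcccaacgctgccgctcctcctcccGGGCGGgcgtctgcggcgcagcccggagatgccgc
Dst, chr1:34160010-34160259: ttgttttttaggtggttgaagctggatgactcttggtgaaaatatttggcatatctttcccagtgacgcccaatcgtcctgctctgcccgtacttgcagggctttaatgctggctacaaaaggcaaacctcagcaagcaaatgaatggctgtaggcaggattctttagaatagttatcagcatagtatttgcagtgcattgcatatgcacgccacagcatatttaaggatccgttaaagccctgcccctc
The first window holds 1 E-box and 4 GC boxes, and the second holds neither.

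The chosen Dst probe set, 1423626_at, was at 11.22, 10.95, 11.23 and 10.68 in 344SQ, 10.71, 11.01, 11.18 and 10.63 in 393LN and 10.15, 10.32, 10.14 and 9.87 in 393P. All 8 arrays of 344SQ and 393LN lay above all 4 of 393P, and 344SQ and 393LN overlapped. Dst was 1.87-fold higher in 344SQ than in 393P (log2 change 0.90 ± 0.16 SE, adjusted p = 0.00407) and 1.70-fold higher in 393LN than in 393P (0.76 ± 0.16, adjusted p = 0.0319). The change in 344SQ against 393LN was 0.14 and did not pass (95% interval -0.22 to 0.49, adjusted p = 0.657). The call of 344SQ against 393P held without any 1 array (highest adjusted p 0.0156), whereas that of 393LN against 393P ended without 393LN replicate 2 or 3 or without any 1 of the 4 393P arrays (highest adjusted p 0.0923).

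A second probe set, 1421276_a_at, was at 9.11, 8.55, 9.28 and 8.89 in 344SQ, 8.50, 9.16, 9.42 and 8.83 in 393LN and 6.86, 8.31, 8.13 and 7.69 in 393P. Again all 8 arrays of 344SQ and 393LN lay above those of 393P. Its change was 1.21 ± 0.30 SE in 344SQ against 393P (adjusted p = 0.0299 over all 34945 probe sets with 1 symbol) and 1.23 ± 0.30 in 393LN against 393P (adjusted p = 0.0639). In 344SQ against 393LN its change was -0.02. The remaining probe sets, 1421117_at and 1450119_at, are paired in the annotation with 1 and the same reference transcript. The former had means of 6.83, 6.93 and 7.08 in 344SQ, 393LN and 393P and a change of -0.25 in 344SQ against 393P (adjusted p = 0.576), and the latter was at the floor on 9 of 12 arrays. Averaging all 4 probe sets gave changes of 0.46 and 0.44 against 393P, neither past the test (adjusted p = 0.0596 and 0.133). Which start site or form of dystonin each probe set reads was not analysed here.

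**Figure D4:**
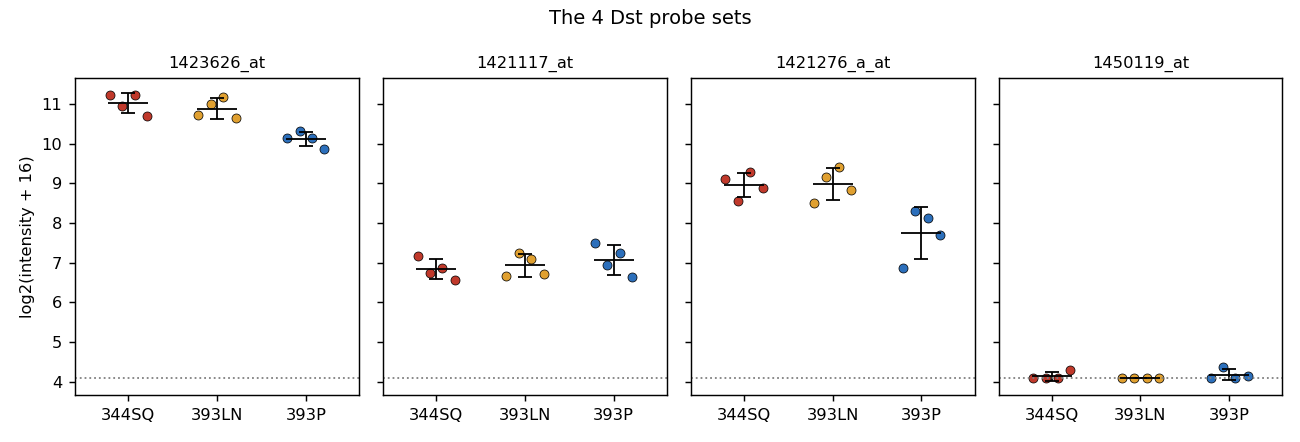
Log2(intensity + 16) of the 4 Dst probe sets by line (4 points each; bar and whiskers, mean and SD); the dotted line is the floor of 4.09. In 1423626_at and 1421276_a_at every 344SQ and 393LN array lies above every 393P array, in 1421117_at the lines overlap, and 1450119_at lies at or near the floor.

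Host cells that also make Dst and Plec were followed through their marker genes. The mean of 7 skeletal muscle markers ran from 6.84 to 7.96 in 344SQ, 7.18 to 9.48 in 393LN and 7.14 to 7.91 in 393P, with its highest value on 393LN replicate 1, where Dst was at 10.71. The 4 measured of 7 Schwann cell and nerve markers had means of 8.68 to 8.91 in 344SQ, 8.46 to 8.59 in 393LN and 8.51 to 8.62 in 393P, so 344SQ lay above both other lines without overlap. In neither of these lists did any gene pass the test. Means of 6 fibroblast markers were 12.24 to 12.55 in 344SQ, 11.73 to 12.26 in 393LN and 11.47 to 12.17 in 393P, higher in 344SQ than in 393P without overlap, with 0 of 6 past the test. None of these markers was at the floor on any array. Skin keratinocytes make the epithelial form of dystonin: their marker mean was highest on 393LN replicates 2 and 3, at 10.15 and 9.17, where both Dst probe sets above were highest of that line, and leaving out either array ended the call of 393LN against 393P. That call also ended when any 1 of the 393P arrays was left out. Its log2 change was 0.76 with all arrays and 0.72 and 0.67 without 393LN replicates 2 and 3. Without 393P replicates 1, 2, 3 and 4 in turn it was 0.77, 0.83, 0.77 and 0.68. On 393P replicate 3, the array of its line with the highest marker mean, Dst was at 10.14, within the range of the other 393P arrays. Deviations of Dst and Col17a1 from line means correlated with r = 0.55 over the 12 arrays. The mean of 6 macrophage markers ran from 10.03 to 11.13 in 344SQ, 10.67 to 11.40 in 393LN and 10.97 to 11.73 in 393P. Of these 1, Aif1, passed, as a fall in 344SQ against 393P (-1.26, adjusted p = 0.00108) and against 393LN (-1.03, adjusted p = 0.00466), and the list's median changes were -0.66 and -0.55. The part of all these cells in the Dst, Plec and other member values was not tested.

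Plec encodes plectin, the plakin that couples the beta-4 tail to keratin and is made in many other cell types. Its level was 13.04, 12.79, 12.95 and 12.98 in 344SQ, 12.83, 12.77, 12.21 and 12.58 in 393LN and 12.95, 12.83, 12.82 and 12.57 in 393P. Lines overlapped in every comparison. The changes were 0.15 for 344SQ against 393P (95% interval -0.16 to 0.45, adjusted p = 0.606), 0.34 for 344SQ against 393LN (0.04 to 0.65, adjusted p = 0.147) and -0.19 for 393LN against 393P (-0.50 to 0.11, adjusted p = 0.57). Its 2 other probe sets had changes of 0.24 and 0.20 in 344SQ against 393P, which did not pass. The probe set used ends in s_at, a class that can also read related transcripts.

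Other parts of the pathway were taken as fixed lists, with counts over the genes measured. Of 7 other laminin receptor genes, Itga3, the alpha subunit of the other main laminin-332 integrin, was lower in 344SQ than in 393P (log2 change -0.52 ± 0.12 SE, adjusted p = 0.016) and than in 393LN (-0.41 ± 0.12, adjusted p = 0.0476), and the dystroglycan gene Dag1 was higher than in 393LN (0.45 ± 0.09, adjusted p = 0.00928). That made 0 higher and 1 lower against 393P, and 1 and 1 against 393LN. Itga3 no longer passed against 393P once 393P replicate 3 was left out (adjusted p = 0.0525). Against 393LN it no longer passed when 344SQ replicate 1, 3 or 4, 393LN replicate 1, 2 or 3, or 393P replicate 2, 3 or 4 was left out (highest adjusted p 0.121). Averaging its probe sets also ended both Itga3 calls (adjusted p = 0.138 and 0.0703), and the probe set of largest variance ended the call of Dag1 (adjusted p = 0.176). Itga7, a laminin receptor subunit of muscle, and Sdc4, a heparan sulfate receptor, had changes of 0.28 and 0.13 against 393P and did not pass.

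Of 9 genes of the epithelial basement membrane and its anchoring fibrils, Npnt alone passed in a comparison. It encodes nephronectin, a basement membrane ligand of integrins, and was 11.58 in 344SQ, 12.71 in 393LN and 12.91 in 393P by mean level. It fell by 1.33 on the log2 scale against 393P (SE 0.15, adjusted p = 0.000126) and by 1.14 against 393LN (adjusted p = 0.000538); with the probe set of largest variance neither passed (adjusted p = 0.0947 and 0.147). Lama5, the alpha chain gene of other epithelial laminins, had changes of -0.12 against 393P and 0.13 against 393LN, and Frem1 and Egfl6, both of basement membranes, had changes of -0.08 and 0.51 against 393P; none of these passed.

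Of 9 proteases and convertases that act on laminin-332 or collagen XVII, 1 rose in 344SQ against 393LN and none passed elsewhere. It was Mmp14, a membrane matrix metalloproteinase (0.51 ± 0.12 SE, adjusted p = 0.0176), and it did not pass with its probe sets averaged (adjusted p = 0.167). Adam9, Mmp2 and Tll1 had changes of 0.44, 0.75 and 0.42 against 393P, with adjusted p of 0.0758, 0.056 and 0.126. Mmp2 went under the threshold without 393P replicate 2 (adjusted p = 0.0131) and in 6 other settings.

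In a list of 10 genes, made of keratin and plakin genes and Erbin, 1 rose and 1 fell against 393P, and 1 rose against 393LN. The list was not limited to parts of the hemidesmosome. The spectraplakin gene Macf1, a relative of Dst, rose by 0.57 ± 0.13 SE against 393P (adjusted p = 0.0174) and by 0.47 ± 0.13 against 393LN (adjusted p = 0.0436). Leaving out 344SQ replicate 2 or 393P replicate 4 took the first value past the threshold (highest adjusted p 0.052). Leaving out any 344SQ array, 393LN replicate 2, 3 or 4, or 393P replicate 2 or 3 did so for the second (highest adjusted p 0.112). With its probe sets averaged Macf1 passed in neither comparison (adjusted p = 0.0678 and 0.0953). The epiplakin gene Eppk1 fell by 0.96 against 393P (adjusted p = 0.00947), and its mean level was 10.15 in 344SQ, 10.35 in 393LN and 11.11 in 393P. Evpl, which encodes envoplakin, and the keratin gene Krt8 had changes of -0.46 and -0.00 against 393P and did not pass.

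Of the 5 pathway lists, transcription factors known to act on these genes had the most calls, with 4 of 8 higher against 393P. Against 393LN 3 were higher, and none was lower in either comparison. Over all genes 4.86% and 3.99% passed as higher in these comparisons. The lists were chosen with earlier results of these data known, so this rank is only a description. The part of host cells, fibroblasts among them, in these values was not tested. Klf5, a factor of epithelial progenitors, was at 12.84 in 344SQ, 11.80 in 393LN and 12.13 in 393P by mean. It rose by 0.71 ± 0.15 SE against 393P (adjusted p = 0.0113) and by 1.04 ± 0.15 against 393LN (adjusted p = 0.00133), calls that held without any 1 array. With its probe sets averaged the rise against 393P was 0.46 (adjusted p = 0.0407). The others were Zeb1, Snai2 and Snai1, repressors of epithelial genes, with changes of 1.29, 0.94 and 0.48 against 393P; Snai1 did not pass against 393LN (adjusted p = 0.379), and it no longer passed against 393P when 344SQ replicate 1, 2 or 3 or any 393P array was left out (highest adjusted p 0.112). Without 393LN replicate 3 Snai2 did not pass against 393LN (adjusted p = 0.0535). Averaging the probe sets of Zeb1 gave 0.72 against 393P, still past the test. In 393LN against 393P no gene of the 5 pathway lists passed.

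The E-box was present in 3 of 7 RefSeq promoter windows, which belong to 4 of the 8 genes (Lamb3, Col17a1, Dst and Cd151). It was present in 17.2% of all 32851 windows of the same 250 bases. Promoter windows of Lama3 were not analysed here. The GC box was present in 2 of the 7 and in 32.7% of all, and the AP-1 site TGANTCA in 0 of the 7 and in 6.75% of all. Both strands were searched. A match is a string of letters and no evidence of binding.

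The genes most like each member were named over 12 arrays by Pearson's r, as a description: the line sets most of it where a gene differs between lines. For Lama3 they were S100a14 (r = 0.998), Esrp1 (0.996) and Spns2 (0.994), and by deviations from line means Wnt7a (0.85), Hcar2 (0.83) and Spns2 (0.83). For Itgb4 the highest r over arrays was that of Sfn (0.96), which encodes the epithelial 14-3-3 protein sigma; by deviations Crip2 (0.91) came first and Sfn (0.91) next. For Lamb3 they were Zc3h12a, Cd14 and Adm over arrays (r from 0.83 to 0.87) and the claudin genes Cldn3 (0.93) and Cldn4 (0.90) with Fos (0.90) between them by deviations. For Itga6 they were Khnyn, Anxa10 and Mex3c (0.93, 0.92 and 0.92), and for Dst Synj2bp, Dock4 and Gpt2 (0.94, 0.94 and 0.93). For Plec and Cd151, whose levels moved little, the closest were Ankhd1 (0.90) and Gpx7 (0.88).

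Among the members themselves, the pair most alike within lines was Lamb3 and Itgb4, whose deviations from line means correlated with r = 0.72, followed by Itga6 and Itgb4 at 0.62. Lama3 with Lamb3 and Lama3 with Itgb4 had values of 0.51 each, and Lama3 with Cd151 had -0.61, each over 12 arrays. 393P replicate 1, which had the highest actin ratio, had the lowest value of 393P in Lamb3, Itgb4, Itga6 and Col17a1, at 11.21, 10.61, 12.48 and 4.22. The Dst probe set 1421276_a_at was also lowest of 393P there, at 6.86. The chosen probe sets of Plec and Cd151 were instead at their highest of 393P on that array, at 12.95 and 13.03. The other Plec probe sets were lowest of 393P there, at 10.93 and 5.14. So were the other Cd151 probe sets, apart from 1456085_x_at, which was highest there. The Itga6 probe set 1422444_at, at 12.10, was not lowest of 393P there. The Lama3 probe set 1444860_at and the Dst probe set 1421117_at were highest of 393P there. The chosen Lama3 and Dst probe sets, at 12.09 and 10.15, lay within the range of the other 393P arrays. The part of RNA quality in these values was not tested.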

How the data were processed

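Total RNA of 12 tumours was hybridised to 1-colour Affymetrix arrays; per the labels' protocols it was isolated with an Ambion kit and labelled with biotin. The authors deposited linear probe set intensities; which program summarised and scaled these is not given in the sources at hand. Of 45101 probe sets, 34945 carry a single symbol in the platform annotation, and the probe set with the highest mean was tested for each of 18193 genes. Values were taken as log2(intensity + 16), which shrinks folds of dim genes. 0 further value columns were present. The limma model (R 4.3.3, limma 3.58.1, lmFit and eBayes) took all 12 arrays and gave each line its own mean, with Benjamini-Hochberg adjustment over all genes; every adjusted p is two-sided and from that fit unless another is named, and single probe sets were adjusted over the 34945. Genes rose or fell at an adjusted p under 0.05. Intervals are 95% limma intervals, not adjusted. The scripts were tested on simulated data. The number of arrays limits the precision.

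Named were the members with all probe sets, up to 4 genes per pathway list with the smallest p, and the 3 genes most like a member, among genes outside the lowest 40% by mean with an SD of at least 0.3. The members and lists were chosen with earlier results of these data known. The sequences are RefSeq's (GRCm38.p6). 1 listed laminin chain gene, 1 keratinocyte marker and 3 nerve markers were not analysed here.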

Additional observations from a re-analysis of the deposited data

Results flagged for a closer look

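In 24 groups of 4 arrays (8 genes in 3 lines), 3 held an array far from the other 3, where chance gives about 1 group in 20. Lama3 was at 6.45 on 344SQ replicate 3, against 6.86 to 6.94 on the other 344SQ arrays. Col17a1 was at 5.76 on 393P replicate 3, against 4.22 to 4.47. Cd151 was at 13.10 on 393LN replicate 4, against 12.83 to 12.86.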

How the results depend on the processing

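For the 8 genes in the 3 comparisons, 495 of 522 values from 22 alternatives kept their direction and side of the threshold, or, where a change called under neither setting turned sign, stayed uncalled; 21 lost a call, 6 gained one and 0 reversed a call. For the pathway genes named, 1226 of 1290 did so, 47 lost a call, 17 gained one and 0 reversed. Among the 8 genes, most values belonged to changes that were not called, which have no call to lose. Of 22 alternatives each, Itgb4 lost its call in 5 for 344SQ against 393P and in 4 against 393LN. Itga6 lost its call against 393LN in 2. Dst lost its call in 1 for 344SQ against 393P and in 9 for 393LN against 393P. Lama3 lost its calls in 0. In 344SQ against 393P, the number of members higher was 1, and 2 with quantile normalization, with a pseudocount of 64, with the dimmest 25% or 50% of genes left out and with a trend and robust prior, where Itga6 joined Dst; it was 0 with the mean of all probe sets of a gene. In 344SQ against 393LN it was 1, and 0 with the probe set of largest variance. In 393LN against 393P it was 1, and 0 with the mean of all probe sets, with the probe set of largest variance and with only the 2 lines compared in the fit. Leaving out 1 array gave 1 to 2 members higher and 1 to 2 lower in 344SQ against 393P, 0 to 1 higher and 1 to 2 lower in 344SQ against 393LN, and 0 to 1 higher in 393LN against 393P. The cause was not tested. Over all genes, leaving out 1 array moved the number higher from 884 to 565 to 903 and the number lower from 1023 to 654 to 1053 in 344SQ against 393P. In 344SQ against 393LN it moved them from 725 to 427 to 922 and from 1259 to 740 to 1559. In 393LN against 393P the numbers moved from 319 to 105 to 311 and from 127 to 48 to 166, and with only these 2 lines in the fit they were 118 and 56. Col17a1, Egfl6, Frem1 and Tll1 were not tested with the dimmest 25% or 50% left out, and Evpl, Itga7, Snai1 and Snai2 were not with 50% left out. Signal near the floor limits Col17a1 and the second Lama3 probe set. The replicate numbers used here follow the order of the samples in the series, since the labels give sample codes instead. All codes of 393LN are lower than those of the other lines, and what the codes stand for is not given. No paired analysis was possible because the labels give no replicate numbers that the lines share.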
